A study of Mus musculus with 20 samples.

Results

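Apolipoproteins are the protein components of lipoproteins, the particles in which cholesterol and triglycerides travel in blood. The liver is a main source of them. Apob is the structural protein around which very low-density lipoproteins are built, Apoa1 and Apoa2 are the main proteins of high-density lipoproteins, and the small exchangeable apolipoproteins move between particles and set how fast lipases and receptors act on them. The 10 apolipoprotein genes described here (Apoa1, Apoa2, Apoa4, Apoa5, Apob, Apoc1, Apoc2, Apoc3, Apoe and Apoh) were the rows of the expression table with these gene symbols, 10 of 45306 genes in all.

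Liver mRNA was sequenced from 20 mice on a C57BL/6 background, each giving 1 library, in 4 groups of 5. The Control group was wild-type and kept at room temperature, the CE group was wild-type and exposed to 4 °C during 3 h of each day over 3 weeks, and the Sirt2-/- and Sirt2-/-/CE groups were Sirt2 knockout mice without and with the same cold. The study made the knockout with ribonucleoprotein injected into fertilized eggs, aimed at internal exons, so that RNA outside the deleted part can still be counted. The treatments started at 5 weeks of age, and no sequencing batch or date is given in the labels. All 10 genes passed the filter on low counts, which left 15616 genes to test.

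Total counts ranged from 35499796 to 53917339 per mouse. Sirt2, the targeted gene, was at 41.3 to 44.5 CPM (counts relative to the TMM-scaled library size) in Control and 40.2 to 56.2 in CE, against 16.9 to 27.5 in Sirt2-/- and 19 to 27.5 in Sirt2-/-/CE, with no overlap between genotypes. The 10 hepatocyte markers summed to between 95323 and 203637 CPM per mouse, and the 7 pancreas markers to at most 19.4. The 8 intestine markers, the other main site where Apoa4 and Apob are made, summed to between 12.8 and 83.6 CPM. Because this is bulk tissue, fewer cells of a type and less RNA per cell cannot be told apart. The libraries differed in a trend of log2 CPM with transcript length over all tested genes. Its slope was most negative in Sirt2-/-/CE replicate 16, at -0.31 log2 CPM per log2 bases, and next in Sirt2-/- replicate 14, at -0.17. The other 18 libraries lay between -0.11 and 0.15, and values without replicates 14 or 16 stand beside some of the fold changes below.

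Both clusters of apolipoprotein genes are in the set. By GENCODE (release vM21, build GRCm38), Apoa1 (ENSMUSG00000032083, chr9:46228580-46230466), Apoc3 (ENSMUSG00000032081, chr9:46232933-46235636), Apoa4 (ENSMUSG00000032080, chr9:46240696-46243459) and Apoa5 (ENSMUSG00000032079, chr9:46268633-46271919) lie within 43340 bases of chromosome 9, Apoc3 on the reverse strand and the others on the forward strand. On chromosome 7, Apoc2 (ENSMUSG00000002992, chr7:19671579-19677941), Apoc1 (ENSMUSG00000040564, chr7:19689481-19692660) and Apoe (ENSMUSG00000002985, chr7:19696109-19699188) lie within 27610 bases, all on the reverse strand. Sirt2 lies on the same chromosome, 9067546 bases from Apoe. Apoa2 (ENSMUSG00000005681, chr1:171225054-171226379), Apob (ENSMUSG00000020609, chr12:7977648-8016835) and Apoh (ENSMUSG00000000049, chr11:108343354-108414396) stand apart from the clusters. The longest transcript of Apob has 13934 bases in 29 exons, and those of the other 9 genes have 518 (Apoa2) to 2515 bases (Apoa5).

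The 250 bases before the start site of 4 of these genes are shown because the results turn on them: Apoa1 had the lowest p-value, Apoa5 the lowest p-value after cold alone, Apob moved against the other genes across mice, and Apoe was the most abundant. The sequences are RefSeq promoters of build GRCm38.p6. Capitals mark TATAAA, the core of the TATA box, AGGTCA, the repeat unit of nuclear receptor sites, GTTAAT, the repeat unit of HNF1 sites, and CACGTG, the E-box, each searched on both strands.
Apoa1, chr9:46228380-46228629, forward strand: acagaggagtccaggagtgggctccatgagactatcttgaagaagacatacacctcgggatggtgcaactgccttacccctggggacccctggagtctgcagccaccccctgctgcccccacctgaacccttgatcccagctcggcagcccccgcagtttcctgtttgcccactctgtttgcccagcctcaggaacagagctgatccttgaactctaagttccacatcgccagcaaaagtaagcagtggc
Apoa5, chr9:46268383-46268632, forward strand: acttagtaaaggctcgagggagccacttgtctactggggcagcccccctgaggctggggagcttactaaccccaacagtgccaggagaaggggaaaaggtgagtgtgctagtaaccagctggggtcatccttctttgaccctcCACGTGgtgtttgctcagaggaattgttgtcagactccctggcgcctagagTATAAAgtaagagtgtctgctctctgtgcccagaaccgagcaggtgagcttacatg
Apob, chr12:7977427-7977676, forward strand: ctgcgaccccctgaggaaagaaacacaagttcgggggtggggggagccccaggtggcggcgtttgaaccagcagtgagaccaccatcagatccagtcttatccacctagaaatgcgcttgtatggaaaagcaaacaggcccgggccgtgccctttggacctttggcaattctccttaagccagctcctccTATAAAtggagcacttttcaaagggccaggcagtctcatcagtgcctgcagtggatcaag
Apoe, chr7:19699189-19699438, reverse strand: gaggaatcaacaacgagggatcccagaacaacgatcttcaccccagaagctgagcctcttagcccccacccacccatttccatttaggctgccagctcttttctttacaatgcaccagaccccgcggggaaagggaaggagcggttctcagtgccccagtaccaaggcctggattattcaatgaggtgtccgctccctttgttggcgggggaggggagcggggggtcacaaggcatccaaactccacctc

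Of the 10 genes, 8 had a promoter in the table of sequences, and Apoc1 and Apoc3 had no entry. In the windows shown, Apoa5 held TATAAA from -56 to -51 and CACGTG from -107 to -102 relative to the start site, and Apob held TATAAA from -60 to -55. The windows shown for Apoa1 and Apoe held none of the 4 motifs, while those of further Apoe start sites held TATAAA or GTTAAT. Over 32536 promoters of the same length, 12.3% held TATAAA, 14% AGGTCA, 6.47% GTTAAT and 6.04% CACGTG. The start sites used for Apoa5 and Apoe are the GENCODE gene starts, and those of RefSeq and GENCODE are 50 bases apart for Apoa1 and 29 for Apob.

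Levels per transcript length were compared with the authors' FPKM values (fragments per kilobase of transcript, scaled to sequencing depth). Apoe, the ligand through which remnant particles are taken up by the liver, was the most abundant, at 15450.3 ± 4532 FPKM (SD, n = 20), the third highest mean of all genes in the table. Apoa2 followed with 8108 ± 1869 FPKM and Apoa1 with 5719 ± 1361 FPKM. Apoc1, which inhibits lipid transfer and particle uptake, had 2242 ± 506 FPKM. Below it were Apoc3, an inhibitor of lipoprotein lipase, with 1470.5 ± 265 FPKM, and Apoh, a phospholipid-binding plasma protein, with 1426 ± 349 FPKM. Apoa5, which promotes lipolysis of triglyceride-rich particles, had 463 ± 126 FPKM, Apob 332 ± 87.1 FPKM (its FPKM per count in Sirt2-/-/CE replicate 16 was 2.88 times that of the median library) and Apoc2, the activator of lipoprotein lipase, 185 ± 50 FPKM. Apoa4, which in mice is made in intestine and liver, was lowest at 60.6 ± 28.1 FPKM, so the range of mean levels was 255-fold.

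The order of most neighbours was the same in every mouse. Apoe was above Apoa2, Apoa1 above Apoc1, Apoc1 above Apoc3, Apoh above Apoa5 and Apoc2 above Apoa4 in 20 of 20 mice. Apoa2 was above Apoa1 in 19 and Apob above Apoc2 in 17. The order of Apoc3 and Apoh varied between mice, with a log2 ratio of FPKM of 0.06 ± 0.20 (SD over 20 mice) and Apoc3 higher in 14. That of Apoa5 and Apob varied too, with a log2 ratio of 0.48 ± 0.72 and Apoa5 higher in 15. The mean ratios of these pairs were not tested, and that of Apoa5 and Apob includes the deviating Apob FPKM of Sirt2-/-/CE replicate 16.

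**Figure D1:**
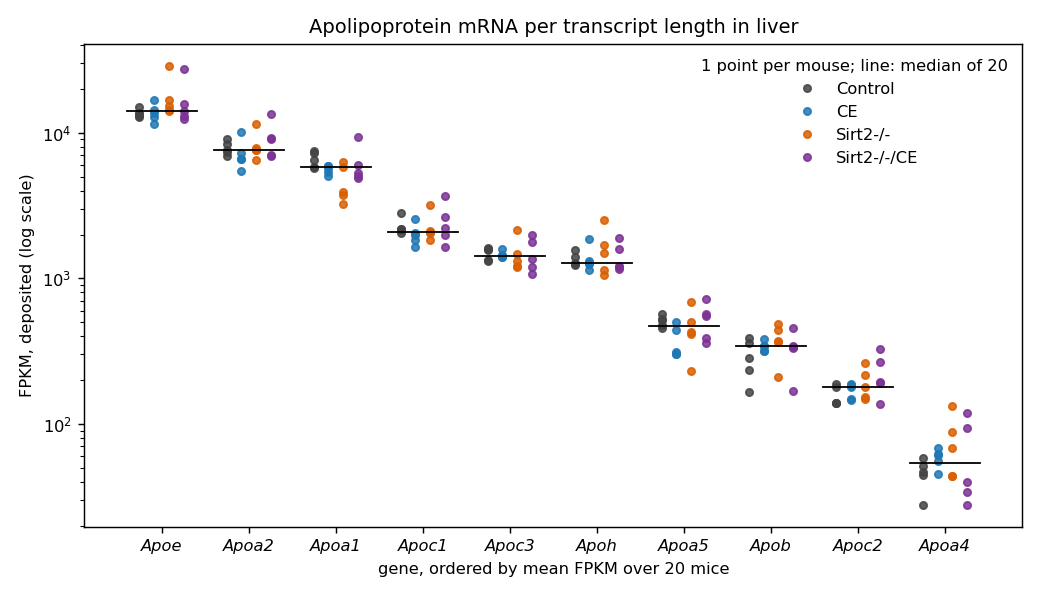
FPKM of the 10 apolipoprotein genes on a log scale, ordered by mean level, with 1 point per mouse coloured by group and a line at the median of 20 mice. Means run from 15450.3 FPKM for Apoe to 60.6 FPKM for Apoa4, and the clouds of Apoc3 and Apoh, and of Apoa5 and Apob, overlap.

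As numbers of reads, the 10 genes held between 3.29% and 6.01% of all counts of a mouse. The share was 3.84% ± 0.229 in Control, 3.69% ± 0.384 in CE, 4.205% ± 0.816 in Sirt2-/- and 4.18% ± 1.03 in Sirt2-/-/CE (SD, n = 5 each). Sirt2-/- replicate 14, at 5.599%, and Sirt2-/-/CE replicate 16, at 6.01%, stood above the other 18 mice, which lay between 3.29% and 4.33%. In exact two-sided permutation tests over mice, none of the 4 comparisons passed, with adjusted p-values of 0.582 to 0.960, and the smallest p these tests allow is 0.0079. With all mice the exact p for CE against Control was 0.437 before adjustment. When each mouse was left out in turn, the lowest exact p was 0.0159, without CE replicate 8, the highest CE mouse at 4.33%. The share in CE was then 0.303 percentage points below Control. That p is not adjusted for the number of mice left out in turn.

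No apolipoprotein gene passed the threshold in any of the 5 tests of groups. With edgeR's quasi-likelihood test and Benjamini-Hochberg adjustment over 15616 genes, 0 of 10 had an adjusted p under 0.05 for CE against Control, where 0.0064% of all genes were called, and 0 of 10 for Sirt2-/- against Control, where 0.89% were. The counts were also 0 of 10 for Sirt2-/-/CE against Sirt2-/-, with 0% of all genes, for Sirt2-/-/CE against CE, with 0.0128%, and for the interaction of genotype and cold, with 0%. At an unadjusted p under 0.05 the counts were 0, 1, 1, 0 and 1 of 10 in these tests, each of them Apoa1, where 10.7%, 14.9%, 7.25%, 6.09% and 8.34% of all genes passed. DESeq2 called 0 of 10 in each of the 5 tests, where it called 1.21%, 3.89%, 0.0449%, 0.199% and 0.263% of all genes, and limma voom with sample quality weights called 1, Apoa1, in Sirt2-/- against Control, among 906 of 15616 genes it called there. No gene of the 10 had groups that did not overlap, in comparisons where 3.04%, 3.61%, 0.743% and 1.22% of all genes did.

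The median log2 fold change of the 10 genes was 0.0050 for CE against Control and -0.0024 for Sirt2-/- against Control, beside -0.01 and 0.02 over all genes tested. For Sirt2-/-/CE against Sirt2-/- and against CE it was 0.17 and 0.12, beside 0.01 and 0.02 over all genes. In each of the last 2 comparisons 7 genes had positive and 3 negative values, none of which passed the test. Without replicates 14 and 16 together, Sirt2-/-/CE against CE had 3 positive and 7 negative values with a median of -0.16, and Sirt2-/- against Control had 2 positive and 8 negative values with a median of -0.20, beside -0.0028 and 0.0020 over all genes. Sirt2-/-/CE against Sirt2-/- had 7 positive and 3 negative values, with a median of 0.14. With each library's trend with transcript length removed, Sirt2-/-/CE against Sirt2-/- had 4 positive and 6 negative values (median -0.06) and Sirt2-/-/CE against CE had 5 of each (median -0.02). The median of the interaction was 0.15, and -0.11 with the trend removed.

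**Figure D2:**
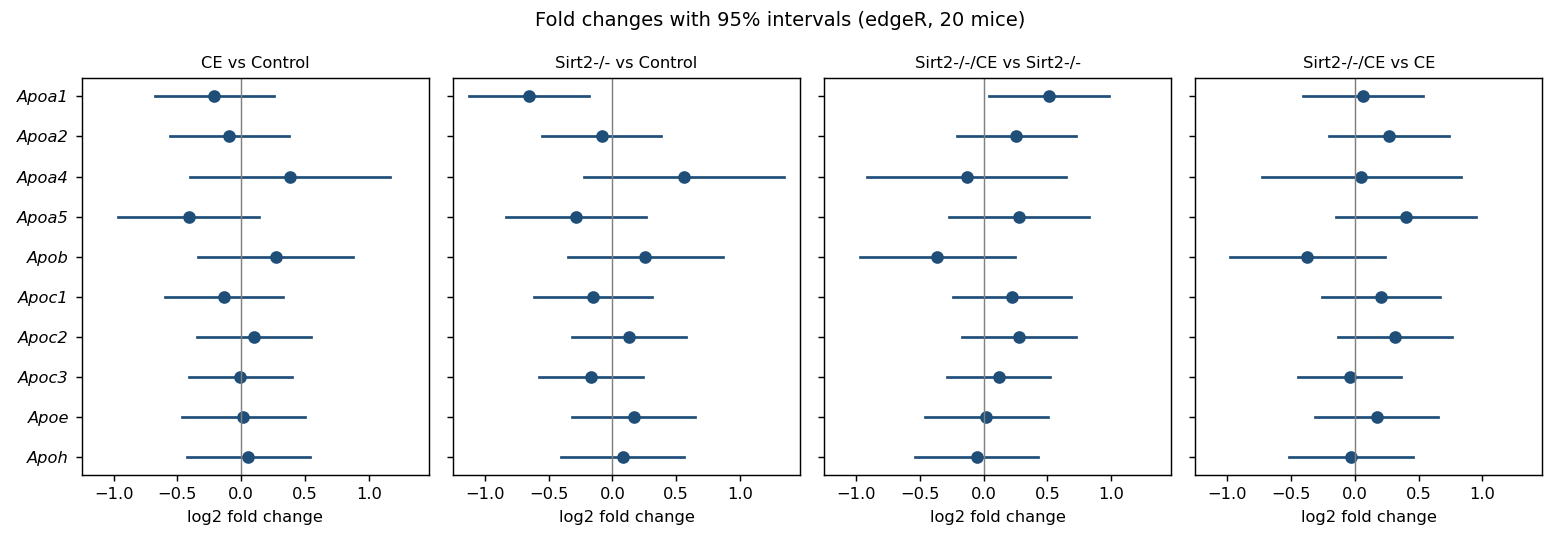
Log2 fold change (x axis) of each apolipoprotein gene in 4 comparisons, with points for the estimate and lines for the 95% interval of edgeR's fit over 20 mice. Before adjustment over all genes, the interval of Apoa1 lies below 0 in Sirt2-/- against Control (-1.13 to -0.19) and above 0 in Sirt2-/-/CE against Sirt2-/- (0.04 to 0.98), and every other interval plotted includes 0.

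Apoa1, the main protein of high-density lipoproteins, had the lowest p-value of the 10 genes in knockout liver. Its CPM in the 5 Control mice were 6809, 6390.4, 8740.4, 6775 and 8069, and in Sirt2-/- mice 6547, 3939, 3968, 5834 and 3041. Of the Sirt2-/- mice, 4 were below the lowest Control mouse and replicate 11 was above it. Its log2 fold change was -0.66 (SE 0.23, 95% interval -1.13 to -0.19), a level 0.634 times that of Control, with an unadjusted p of 0.0085 and an adjusted p of 0.160 in edgeR's test. The adjusted p ranged from 0.0254, with limma voom, to 0.717, with a score of the circadian clock as a covariate, a fit that called 0 of all genes. That score is the mean of centred log2 CPM of clock genes such as Dbp minus that of clock genes of the opposite phase, and was 1.33 to 3.36 in Control and -6.48 to 2.17 in Sirt2-/-, and its part in the difference was not tested beyond that fit. Without Sirt2-/- replicate 14 and Sirt2-/-/CE replicate 16 together, the log2 fold change was -0.76 with an adjusted p of 0.0763. With 1 mouse left out it ranged from -0.81 to -0.54. With each library's trend with transcript length removed, a fit added after seeing the data, it was -0.61 (edgeR, unadjusted p = 0.0012, adjusted p = 0.0586). Relative to the summed counts of hepatocyte markers of the same mouse, the Apoa1 difference was -0.43 on the log2 scale (exact permutation p = 0.103). On that ratio the median of all genes was 0.28 higher in Sirt2-/- than in Control, and that of the 10 genes 0.23. The ratios of Apoa4 (0.75), Apoc2 (0.39), Apoe (0.40) and Apoh (0.29) were higher at an unadjusted exact p under 0.05, 4 of 10 genes, where 15.7% of all genes were. None passed after adjustment over the 10 genes and 4 comparisons (adjusted p = 0.476 for each), and these genes are correlated across mice.

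After cold, Apoa1 had 5479, 6830.3, 7267, 5723 and 6469 CPM in wild-type mice and 11039, 4988, 5015, 6303 and 5881 CPM in knockout mice. The groups overlap, and the highest value is that of Sirt2-/-/CE replicate 16. Sirt2-/-/CE against Sirt2-/- gave a log2 fold change of 0.51 (95% interval 0.04 to 0.98, adjusted p = 0.667 in edgeR's test). With 1 mouse left out it was 0.25 (without replicate 16) to 0.66. The interaction, the cold effect in knockout minus that in wild-type mice, was 0.72 (SE 0.32, adjusted p = 0.559). With 1 mouse left out it was 0.46 (without replicate 16) to 0.88. In edgeR's test with the length trend removed, these values were 0.35 (adjusted p = 0.603) and 0.53 (adjusted p = 0.467).

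Apoa2, the second protein of high-density lipoproteins, had 4606, 4024, 3957, 4320.5 and 4575 CPM in Control and 3844, 3704, 6089, 2868 and 3612 CPM in CE. In Sirt2-/- it had 3885, 3178, 3929, 5619 and 3646 CPM, and in Sirt2-/-/CE 7713, 3372, 3491, 4703 and 4942 CPM. In each of the last 3 groups 1 mouse was well above the rest, namely replicates 8, 14 and 16. The log2 fold change of Sirt2-/-/CE against CE was 0.27 (95% interval -0.20 to 0.74, adjusted p = 0.935 in edgeR's test), 0.03 without replicate 16, 0.47 without CE replicate 8 and 0.17 without CE replicate 9. With the length trend removed it was 0.11.

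Apob, the structural protein of very low-density lipoproteins, had 5001, 5821, 3601, 4301 and 2402 CPM in Control and 4902, 5229, 5104, 5476 and 4741 CPM in CE. The Control mice covered a range that held all 5 CE mice. In Sirt2-/- mice its CPM were 5216, 4936, 6832, 2674 and 5617, and in Sirt2-/-/CE mice 1859.9, 6112, 4605, 4654 and 2429. The lowest value of each knockout group was that of replicate 14 or 16, where Apoe was highest. Sirt2-/-/CE against CE gave a log2 fold change of -0.37 (95% interval -0.98 to 0.23, adjusted p = 0.935 in edgeR's test), and Sirt2-/-/CE against Sirt2-/- gave -0.36 (adjusted p = 0.854). Both moved with single mice. The value against CE was -0.20 without replicate 16, -0.25 without replicate 20 and -0.61 without replicate 17, and that against Sirt2-/- was -0.18, -0.23 and -0.59 without the same mice and -0.23 without Sirt2-/- replicate 13. In the authors' FPKM, replicate 16 was not low for Apob, at 343 FPKM, and the group means were 327 FPKM in Sirt2-/-/CE and 340.4 FPKM in CE. On the log2(FPKM + 1) scale limma gave differences of -0.12 against CE (adjusted p = 0.959) and -0.21 against Sirt2-/- (adjusted p = 0.884). The interaction of Apob was -0.63 (SE 0.41, adjusted p = 0.716). With each library's trend with transcript length removed, the SE of Apob in the comparison with Sirt2-/- fell from 0.29 to 0.14, at a log2 fold change of -0.37 (adjusted p = 0.521). In that fit, which was added after seeing the data, Apob was at 0.30 for Sirt2-/- against Control (adjusted p = 0.264), at -0.35 for Sirt2-/-/CE against CE (adjusted p = 0.582) and at -0.66 for the interaction (unadjusted p = 0.0036, adjusted p = 0.338). Apob then passed an unadjusted p under 0.05 in these 3 tests and against Sirt2-/-, where 17.5%, 7.13%, 9.75% and 8.09% of all genes did. Apoa1 also passed in each of these tests except Sirt2-/-/CE against CE.

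Of the modulators of lipoprotein lipase, Apoa5 had 1426, 1212, 1416, 1314 and 1359 CPM in Control and 1135, 845, 1472, 775 and 825 CPM in CE. In CE, 4 mice were below every Control mouse and replicate 8 was above every one. For Apoa5 this gave a log2 fold change of -0.41 (95% interval -0.96 to 0.14, adjusted p = 0.630 in edgeR's test), and -0.59 without replicate 8 (adjusted p = 0.485). In Sirt2-/- its CPM were 1062, 991, 1271, 1663 and 523, and in Sirt2-/-/CE 2012, 917, 870.3, 1425 and 1448, with replicates 14 and 16 highest. The log2 fold change of Sirt2-/- against Control was -0.29 (adjusted p = 0.661), -0.48 without replicate 14 and -0.11 without replicate 15. That of Sirt2-/-/CE against CE was 0.40 (adjusted p = 0.924), and 0.20 without replicate 16. The interaction was 0.69 (SE 0.37, adjusted p = 0.644).

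Apoc3, the inhibitor, had 869, 773, 789, 955 and 898 CPM in Control and 659, 619, 713, 1117 and 715 CPM in Sirt2-/-. Again 4 Sirt2-/- mice were below every Control mouse, and replicate 14 was above all of them. The edgeR log2 fold change was -0.16 (95% interval -0.57 to 0.24, adjusted p = 0.753), -0.35 without replicates 14 and 16 together (adjusted p = 0.285) and -0.10 without Sirt2-/- replicate 12. With the length trend removed it was -0.07, and relative to hepatocyte markers the difference was 0.08. In CE Apoc3 had 768 to 1016 CPM and in Sirt2-/-/CE 549 to 1201 CPM.

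Apoc2, the activator, was between 93.2 and 139 CPM in Control, 100.4 and 140.5 in CE, 95.8 and 169 in Sirt2-/-, and 90.1 and 228 in Sirt2-/-/CE. Its largest log2 fold change was 0.31 for Sirt2-/-/CE against CE (95% interval -0.13 to 0.76, adjusted p = 0.933 in edgeR's test), and 0.11 without replicate 16. With the length trend removed it was 0.14, and the largest was then 0.23 for Sirt2-/- against Control. Apoc1 had 996 to 1218 CPM in Control, 732 to 1325 in CE, 768 to 1346 in Sirt2-/- and 688 to 1806 in Sirt2-/-/CE. The log2 fold change of Apoc1 for Sirt2-/-/CE against Sirt2-/- was 0.22 (adjusted p = 0.906) and -0.02 without replicate 16. Both genes had their highest value in Sirt2-/-/CE replicate 16.

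Apoe had 18074, 17265, 18974, 18873 and 19316 CPM in Control and 17875, 18371, 24527, 14529 and 18273 CPM in CE. In Sirt2-/- its CPM were 19126, 16745, 20647, 31206 and 16122, and in Sirt2-/-/CE 37077, 16515, 15892, 15999 and 19996. Replicates 14 and 16 are the highest of the 20 mice, and the other knockout mice lie on both sides of the Control range. The log2 fold change was 0.02 for CE against Control (95% interval -0.47 to 0.50) and 0.17 for Sirt2-/- against Control (95% interval -0.32 to 0.65, adjusted p = 0.795 in edgeR's test), and the latter was -0.04 without both mice. The interval for Sirt2-/- reached up to 1.57-fold the level of Control.

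Apoa4 varied most. Its CPM were 94.7, 54.6, 95.2, 91.4 and 114 in Control and 86.5, 112, 136, 115 and 135 in CE. In Sirt2-/- they were 80.9, 76.9, 127, 234 and 146, and in Sirt2-/-/CE 193, 69.4, 61.4, 51.7 and 231. The Sirt2-/-/CE mice fell apart into replicates 16 and 20, above every Control mouse, and 3 mice with 51.7 to 69.4 CPM. In edgeR's test its log2 fold change was 0.38 for CE against Control (95% interval -0.40 to 1.16, adjusted p = 0.794) and 0.56 for Sirt2-/- against Control (95% interval -0.22 to 1.35, adjusted p = 0.517). The first was 0.24 without Control replicate 2, and the second 0.26 without Sirt2-/- replicate 14. Apoh had 1608 to 2092 CPM in Control, 1392 to 2654 in CE, 1224 to 2901 in Sirt2-/- and 1363 to 2556 in Sirt2-/-/CE, with log2 fold changes between -0.05 and 0.08 in the 4 comparisons. Without replicates 14 and 16 together, Apoh was at -0.16 for Sirt2-/- against Control and at -0.20 for Sirt2-/-/CE against CE. With the length trend removed, Apoh was at -0.17 for Sirt2-/-/CE against Sirt2-/- and at -0.14 for Sirt2-/-/CE against CE.

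**Figure D3:**
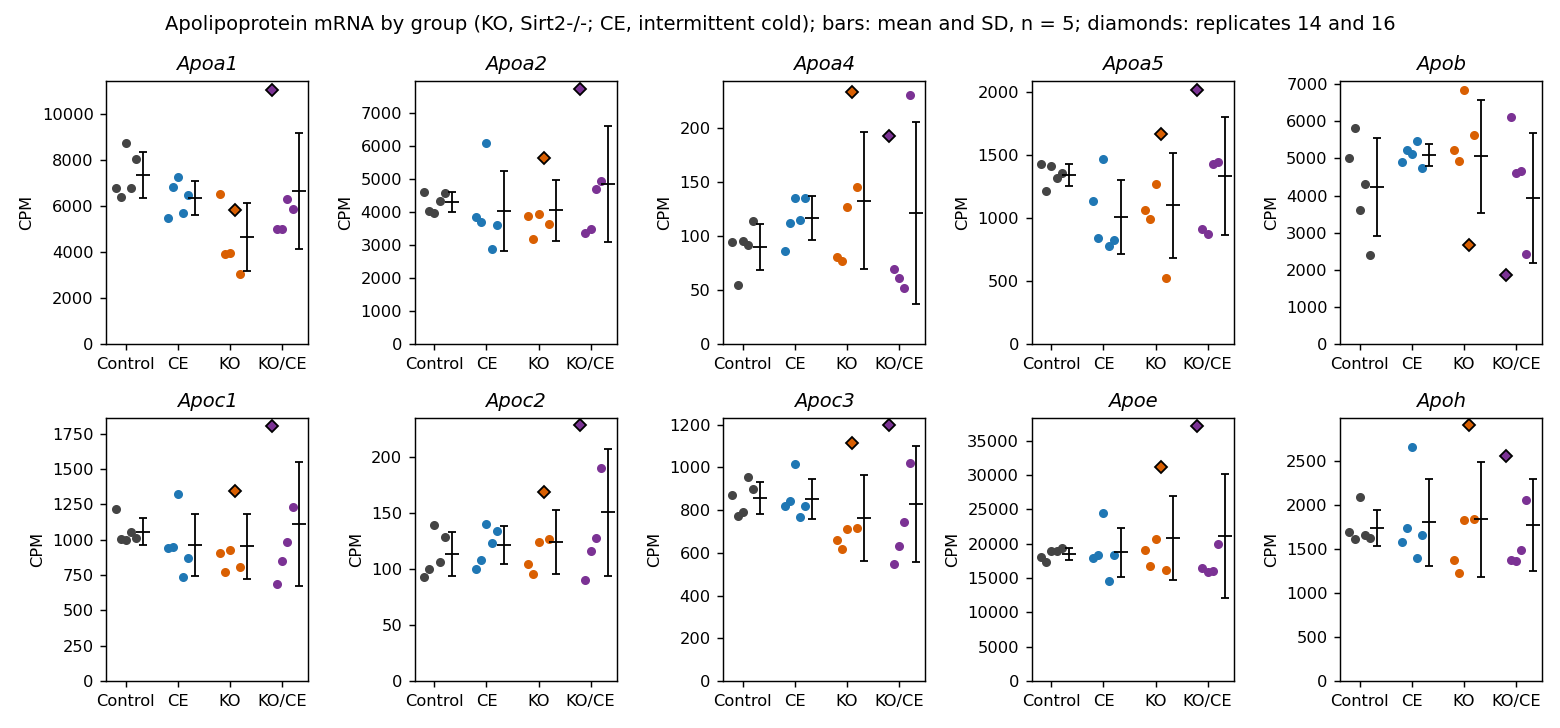
CPM (TMM-scaled, y axis from 0) of each apolipoprotein gene in each mouse of the 4 groups, with mean and SD (n = 5) at the right of each group and diamonds for Sirt2-/- replicate 14 and Sirt2-/-/CE replicate 16. One of these 2 mice is the highest of all 20 for 9 genes, and replicate 16 is the lowest for Apob.

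The spread between mice differed between the genes. The SD of log2 CPM within groups was 0.65 for Apoa4 and 0.51 for Apob, and 0.31 to 0.45 for the other 8 genes. The median of the 10 was 0.35, beside 0.43 over all genes tested. Of the 36 pairs that leave out Apob, all had a positive Pearson's r of log2 CPM, from 0.12 to 0.96, and 32 passed a permutation test adjusted over all 45 pairs. All 9 pairs with Apob were negative, from -0.54 to -0.77, and all 9 passed. The smallest size of r that passed was 0.47, a size reached by 15% of all pairs of the 15616 genes tested. Without replicates 14 and 16, 2 of the 36 pairs were negative, the lowest at -0.07.

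The closest pair was Apoa2 and Apoc1, with Pearson's r = 0.96 and Spearman's rho = 0.95 over 20 mice (adjusted permutation p = 6.4e-05 and 0.00011). Without the 2 mice farthest from the median of Apoa2 r was 0.92, and with the group means subtracted it was 0.96. Apob and Apoc2 were the most opposed, with r = -0.77 (adjusted permutation p = 0.00056) and rho = -0.60 (adjusted permutation p = 0.012), and r was -0.72 without the 2 mice farthest from the median of Apob. Apoa1 and Apoa4, neighbours in the cluster on chromosome 9 with Apoc3 between them, had the lowest positive value, with r = 0.12 (adjusted permutation p = 0.620), and -0.06 without replicates 14 and 16.

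The levels also moved with the trend of each library with transcript length. Over 20 mice, Pearson's r between the slope of that trend and log2 CPM was -0.64 to -0.91 for the 9 genes with short transcripts and 0.81 for Apob. The smallest size was for Apoa1 (r = -0.64, rho = -0.65, adjusted permutation p = 0.0030 and 0.0031) and the largest for Apoc3 (r = -0.91, rho = -0.91, adjusted permutation p of 3.3e-05 for both). For Apob rho was 0.58 (adjusted permutation p = 0.0083). These are 10 relations, and all 10 passed. An r of at least the size of that of Apoa1 was found for 19.7% of all genes tested. Without replicates 14 and 16, the 2 mice farthest from the median slope, r was 0.61 for Apob and -0.54 to -0.89 for the others. Each gene contributes 1 of 14838 points to the slope.

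**Figure D4:**
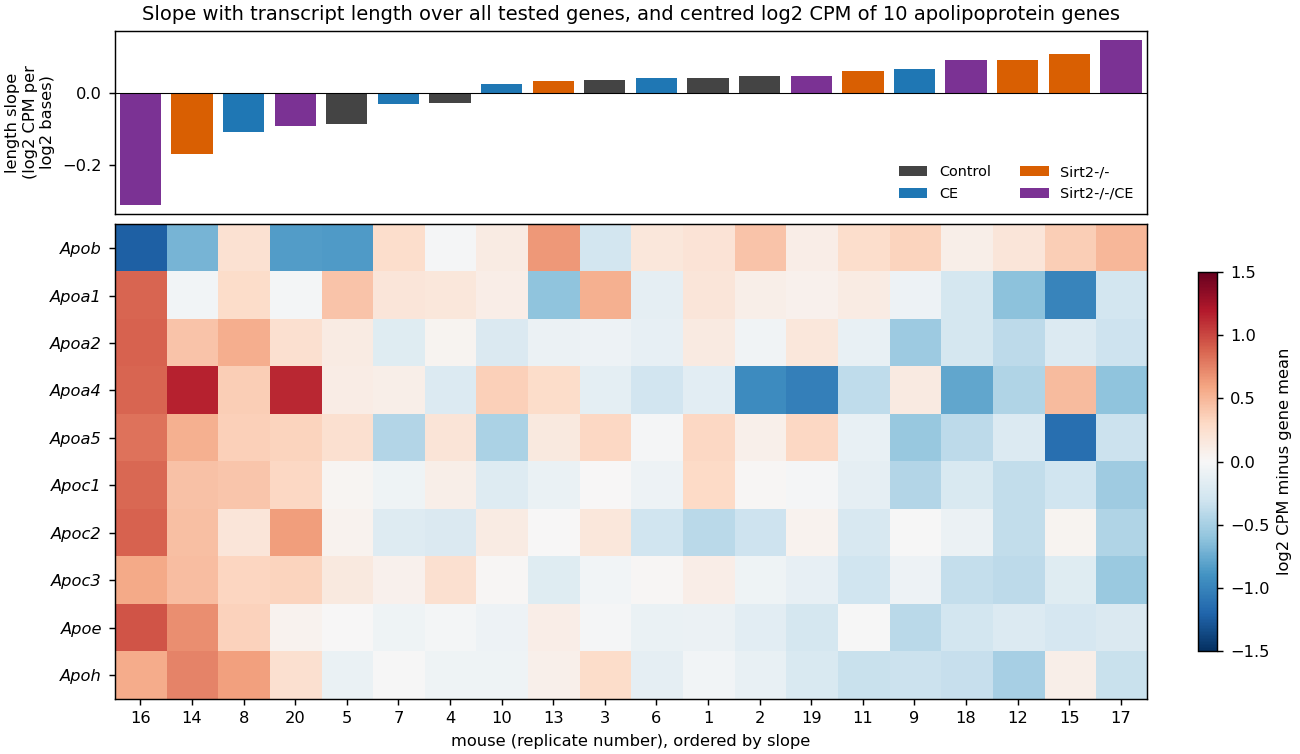
Slope of log2 CPM with log2 transcript length over all tested genes in each library (top, bars coloured by group) and log2 CPM of the 10 genes minus the gene's mean (bottom), with mice ordered by slope. Sirt2-/-/CE replicate 16 and Sirt2-/- replicate 14, at the left, have the most negative slopes, high levels of most short genes and low levels of Apob.

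When each library's trend with transcript length was removed, 0 of the 9 pairs with Apob and 13 of the 36 others passed the same test. The r of pairs with Apob then lay between -0.36 and 0.42. That of Apoa2 and Apoc1 was 0.86 (adjusted permutation p = 0.00045), and that of Apoc1 and Apoh 0.70. The SD of log2 CPM within groups fell for every one of the 10 genes, from 0.51 to 0.19 for Apob and from 0.35 to 0.21 for Apoe. Without replicates 14 and 16 but with the trend kept, 2 pairs with Apob and 21 others passed.

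**Figure D5:**
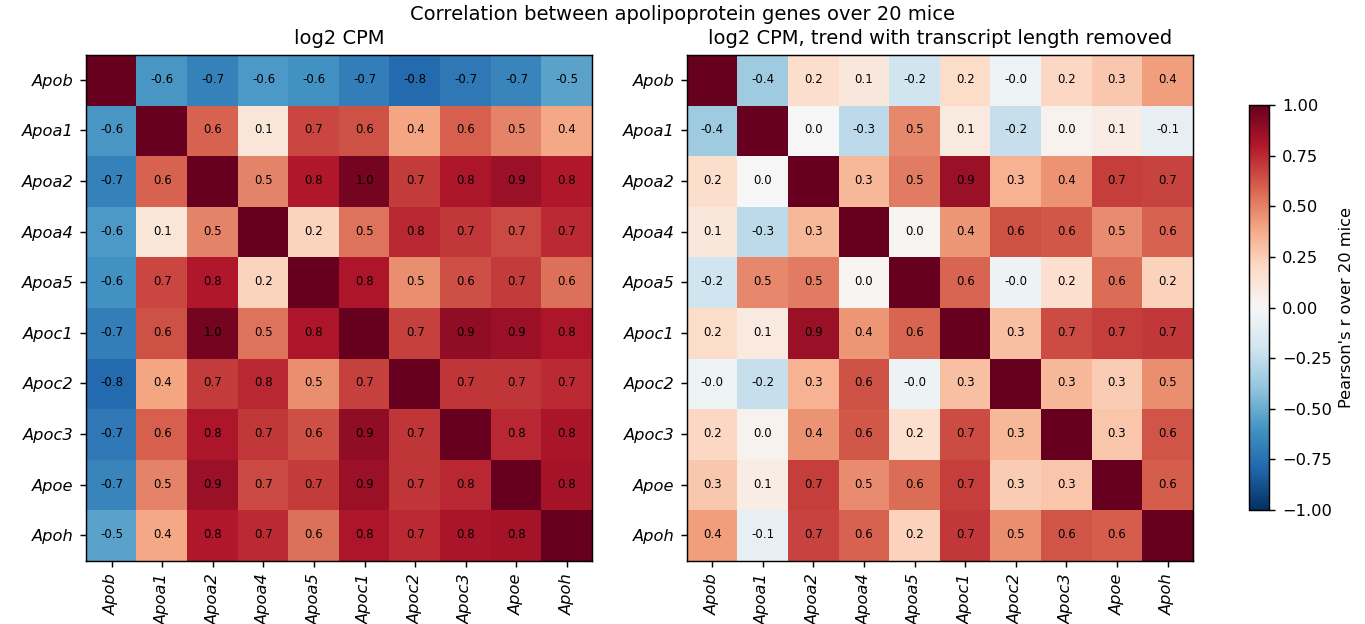
Pearson's r between log2 CPM of each pair of apolipoprotein genes over 20 mice, before (left) and after (right) each library's trend with transcript length was removed. On the left the pairs with Apob are negative (-0.54 to -0.77) and the others positive (0.12 to 0.96), and on the right the pairs with Apob lie between -0.36 and 0.42.

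For the 3 genes with the largest SD of log2 CPM over the 20 mice, the most alike genes among all 15616 tested are given as a description. For Apob they were Mtdh (r = 0.95), Usp9x (r = 0.94) and Atp13a3 (r = 0.94), and with the length trend removed these were 0.81, 0.56 and 0.53. For Apoa5 they were Mrpl14 (r = 0.91), Fahd2a (r = 0.90) and Mrpl48 (r = 0.89), which kept values of 0.88, 0.85 and 0.87. For Apoa4 they were As3mt (r = 0.83), Rnf130 (r = 0.83) and Tpi1 (r = 0.83), with 0.76, 0.66 and 0.69 after removal. With group means subtracted, all 9 values lay between 0.82 and 0.96.

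The genes beside the clusters were measured as well. Apoc4, between Apoc2 and Apoc1, had 374 ± 40.9 CPM in Control, 369 ± 45.7 in CE, 359 ± 97.4 in Sirt2-/- and 440.4 ± 199 in Sirt2-/-/CE (SD, n = 5 each). Of the neighbours within 50 kb that could be tested, namely Clptm1, Relb, Tomm40, Nectin2 (Pvrl2 in the table), Apoc4, Sik3, Zpr1 and Bud13, none had an adjusted p under 0.05 in edgeR's test of the 5 comparisons. Sik3, a kinase gene before Apoa1, had the lowest p-value among them for CE against Control, with a log2 fold change of 0.54 (adjusted p = 0.241). Some apolipoprotein exons are shared with other annotated genes. Of the 813 exon bases of Apoc2, 646 are shared with Gm44805 on the same strand, and Apoa4 and Apoa5 overlap Gm10680, Gm47528 and Gm47544 on the other strand. The longest near-identical matches of the 10 genes to other genes were to the same partners, with 647 bases for Gm44805, 523 for Gm10680, 508 for Gm47528 and 348 for Gm47544. Apoh shares 30 bases with Prkca on the other strand. Gm10680 had at most 1 count, and Gm44805, Gm47528 and Gm47544 had no entry among the deposited genes. How reads in shared bases were assigned is not given in the sources used here.

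The genes that build, clear and regulate lipoproteins were counted from lists. Of 14 tested other apolipoproteins, 15 genes of lipoprotein assembly and secretion, 13 receptors and their regulators, 14 lipases and remodelling factors and 25 transcription factors of apolipoprotein genes, 0 were called in any of the 5 tests by edgeR. The counts at an unadjusted p under 0.05 are given for the 4 lists other than the receptors. For CE against Control, where 10.7% of all genes passed, 4 other apolipoproteins were higher and 1 lower, 4 assembly genes were higher, 3 lipase genes lower, and 1 transcription factor stood in each direction. For Sirt2-/- against Control, where 14.9% passed, 3 other apolipoproteins were lower, 4 assembly genes higher, 4 lipase genes lower, and 2 transcription factors stood in each direction. Sirt2-/-/CE against Sirt2-/-, with 7.25% of all genes, had 3 lipase genes higher and 0 genes of the other 3 lists. Sirt2-/-/CE against CE, with 6.09%, had 5 other apolipoproteins lower and 3 lipase genes higher. The interaction, with 8.34%, had 1 other apolipoprotein in each direction, 3 assembly genes lower and 4 lipase genes higher. Of the assembly genes, Sec23b, a coat subunit of vesicles leaving the endoplasmic reticulum, had 37.8 ± 5.62 CPM in Control and 73.1 ± 28.8 in Sirt2-/- (log2 fold change 0.95, adjusted p = 0.0729). Sec24d, a second coat subunit, had a log2 fold change of 0.76 (adjusted p = 0.115).

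Lipc, hepatic lipase, had 128 ± 9.04 CPM in Control and 94.3 ± 21.5 CPM in Sirt2-/- (log2 fold change -0.44, adjusted p = 0.130 in edgeR's test). Gpihbp1, the endothelial anchor of lipoprotein lipase, had 4.38 to 8.76 CPM in CE and 12.7 to 31.8 CPM in Sirt2-/-/CE, without overlap (log2 fold change 1.59, adjusted p = 0.426). The 7 endothelial markers summed to 36.0 to 171 CPM in CE and 176 to 282 CPM in Sirt2-/-/CE, also without overlap, and their part in that difference was not tested. Mylip, which marks lipoprotein receptors for degradation, had a log2 fold change of 0.89 in the same comparison (adjusted p = 0.638).

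Of the transcription factors, Nr0b2, a corepressor in bile acid signalling, had 14.8 ± 5.36 CPM in Control and 35.6 ± 18.3 CPM in Sirt2-/- (log2 fold change 1.26, adjusted p = 0.0811 in edgeR's test). Nr1h4, the bile acid receptor, had 127 ± 24.9 CPM in Control and 95.4 ± 14.5 CPM in CE (log2 fold change -0.41, adjusted p = 0.410). Saa1 and Saa2, acute-phase proteins carried on high-density lipoproteins, had the largest folds of the lists. In CE, Saa1 was at 37.6 CPM in replicate 6 and between 288 and 858 CPM in the other 4 mice, which were above every Sirt2-/-/CE mouse (18.1 to 38.4 CPM). The log2 fold change of Sirt2-/-/CE against CE was -4.22 for Saa1 and -4.78 for Saa2 (adjusted p = 0.426 for both). In Control, 4 mice had 17.5 to 37.3 CPM of Saa1 and replicate 3 had 848, and in Sirt2-/- all 5 had 5.40 to 44.7 CPM. Saa2 was at 5.31 to 15.2 CPM in the same 4 Control mice, at 793 in replicate 3 and at 1.48 to 12.1 CPM in Sirt2-/-. Sirt2-/- against Control gave -3.27 for Saa1 (adjusted p = 0.111) and -4.64 for Saa2 (adjusted p = 0.0815), with Control means that rest on replicate 3.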

How the data were processed

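Liver mRNA of 20 mice was enriched on oligo(dT) beads and sequenced by the study. The authors deposited 1 table with a read count and an FPKM value (fragments per kilobase of transcript, scaled to sequencing depth) per gene and mouse; counts are whole numbers without normalization, and the submitters' processing notes name build mm 10. The aligner and counter are not given in the sources used here. The 9 lines that hold no gene were left out, and every column was mapped to a mouse by its label.

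Counts (35499796 to 53917339 per mouse) were analysed in R 4.3.3 with edgeR 4.0.16: filterByExpr by group (minimum count 10, minimum total 15), TMM scaling, 1 fit of all 20 libraries, and quasi-likelihood F tests of 4 pairs of groups and the interaction. Benjamini-Hochberg adjustment ran over 15616 genes, and a gene was called at an adjusted p under 0.05. CPM values are TMM-scaled, and log2 CPM for correlations used a prior count of 2. Shares of counts were compared with exact permutation tests (252 splits), and correlations with 100000 permutations. Library trends with transcript length (lowess, span 0.3, 14838 genes with a length) were removed as an offset. Near-identical transcripts (95% identity over 150 bases) were searched among the annotated transcripts with BLAST+ 2.17.0. The edgeR test was checked on simulated data.

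Alternatives were DESeq2 1.42.0, limma 3.58.1 (voom with sample quality weights, and log2(FPKM + 1)), other scalings and filters, only the groups compared, a clock covariate, hepatocyte markers as reference and each mouse left out. The length correction and the removal of replicates 14 and 16 together were added after seeing the data. Named genes were the 10 apolipoproteins, in each list the 2 genes with the lowest p-value over the 5 tests, neighbours within 50 kb of the clusters and, for the 3 most variable members, the 3 most correlated genes; the value of 1 further gene is not reported here. The members, lists and alternatives were chosen with earlier results of these data known. Replicates are separate mice. Figures were drawn with matplotlib 3.10.9.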

Additional observations from a re-analysis of the deposited data

Results flagged for a closer look

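Among 49 groups of 5 mice, 7 held a value whose gap to the nearest mouse, divided by the range of the group, exceeded Dixon's critical value of 0.71. For independent groups the rate by chance is about 1 in 20. These groups share mice and correlated genes, and most of the flagged values are of replicates 14 and 16. The count can therefore not be set against that rate. For Apoc3, Sirt2-/- replicate 14 had 1117 CPM, against 619 to 715 CPM in the other 4 mice. For Apoe, Sirt2-/-/CE replicate 16 had 37077 CPM, against 15892 to 19996 CPM in the others. For Apoh, Control replicate 3 had 2093 CPM, against 1608 to 1691 CPM. The share of counts held by the 10 genes was 5.599% in Sirt2-/- replicate 14, against 3.52% to 4.10% in that group, and 6.01% in Sirt2-/-/CE replicate 16, against 3.51% to 3.83%. The slope with transcript length was -0.169 in Sirt2-/- replicate 14, against 0.0333 to 0.107 in that group.

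For Apob in Sirt2-/-/CE replicate 16, the authors' FPKM per count was 2.88 times the level of the other libraries, which lay between 0.987 and 1.03 in that group. Over 7334 genes with at least 200 counts in every library, 11 were more than 2-fold off in that library and 0 to 6 in the others. The deposited count and FPKM of Apob therefore differ in that mouse, and the cause was not tested.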

How the results depend on the processing

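No paired analysis was possible because the labels number the mice from 1 to 20 over the 4 groups and no number is shared. Under the alternatives, 0 of 10 genes were called in each test, except that limma voom with sample quality weights called 1 (Apoa1) for Sirt2-/- against Control, with a log2 fold change of -0.64 and an adjusted p of 0.0254. Leaving out 1 mouse called 0 of 10 in each test. Those fits called 0.0315% to 2.36% of all genes for Sirt2-/- against Control and at most 0.429% in the other tests. Over the alternatives, the share of all genes called for Sirt2-/- against Control ranged from 0% with the clock score to 5.8% with voom. It was 1.72% when the length trend was removed and 0.114% without replicates 14 and 16. In the other tests the highest share was 3.46%, with voom for CE against Control. Over all 50 fold changes of the 10 genes in 5 tests, 10 turned sign with the length trend removed and 10 without replicates 14 and 16. Of the 22 followed over the alternatives that could be run for each (those larger than their SE, and Apoe against Control), 3 turned, 2 of Apoe and 1 of Apoc1. Apoa2 in Sirt2-/-/CE against Sirt2-/- fell from 0.26 to 0.01 with the length trend removed, and was 0.028 to 0.405 with 1 mouse left out. For Apoe, CE against Control gave -0.0054 with upper-quartile scaling, -0.020 by library size only and -0.0050 with voom, and -0.10 to 0.10 when 1 mouse was left out, the lowest without CE replicate 8. Apoe in Sirt2-/- against Control was -0.037 without replicates 14 and 16, and -0.027 to 0.243 with 1 mouse left out. Apoc1 in Sirt2-/-/CE against Sirt2-/- was -0.028 with the length trend removed and -0.025 relative to hepatocyte markers, and -0.020 to 0.382 with 1 mouse left out.

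The difference in the share of counts, in percentage points, was also taken with 1 mouse left out. For CE against Control it ranged from -0.303 (without CE replicate 8, unadjusted exact permutation p = 0.0159) to -0.0421. For Sirt2-/-/CE against Sirt2-/- it ranged from -0.478 to 0.327, the highest without Sirt2-/- replicate 14, and was 0.0934 from summed FPKM. For Sirt2-/- against Control it ranged from 0.0201 (without replicate 14) to 0.540, and for Sirt2-/-/CE against CE from 0.0343 (without replicate 16) to 0.660, with 1.05 from summed FPKM. Of 45 pairs of genes, 41 correlated, 13 with the length trend removed and 23 without replicates 14 and 16. Scaling by library size only moved the median of all genes for Sirt2-/- against Control from 0.02 to 0.16.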
